A study of Mus musculus with 42 samples.

Results

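The Cyp3a family of mouse liver was described over 7 groups of diet and treatment. The members were all mouse probes of a 2-colour cDNA array whose name is a Cyp3a gene or an older name of one, and 4 of the 277 genes measured met this rule: Cyp3a11, Cyp3a41a (named Cyp3a41 on the array), Cyp3a25 and Cyp3a13. Each has 1 probe printed in 3 spots, and no further Cyp3a gene has a probe. The livers came from female C57BL/6 mice killed 24 h after a single intraperitoneal injection, 1 mouse per array. Vehicle (corn oil) and TCPOBOP at 3 mg/kg were given on standard diet, both again on a diet with 1% cholesterol fed for 1 week, and PCN at 40 mg/kg on that same cholesterol diet; the RNA of these groups was hybridized against reference pool 1. A separate set of vehicle and PCN (40 mg/kg) mice on standard diet was hybridized against reference pool 3. The labels give 6 mice in each group, and 40 of 42 samples have scanner values of their own: vehicle on cholesterol diet and vehicle of pool 3 have 5 arrays each, the other groups 6. The vehicle mice of every group and the TCPOBOP mice on standard diet were 19 weeks old, whereas on cholesterol diet the TCPOBOP mice were 18 and the PCN mice 16 weeks old, and PCN mice of the standard diet were between 18 and 19 weeks. Age and agent therefore cannot be told apart on cholesterol diet, nor can age and diet among TCPOBOP mice. The authors name the cholesterol diet as a Western diet and the other as standard chow. Cholesterol and other contents of these feeds therefore cannot be told apart either.

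Cyp3a enzymes are cytochromes P450 of the endoplasmic reticulum that oxidize steroids, bile acids and a large share of drugs. Their genes are known targets of PXR (Nr1i2), a nuclear receptor activated in mice by PCN, and of CAR (Nr1i3), which TCPOBOP activates in mice; both receptors pair with RXR on repeats of a hexamer half-site. Cyp3a11 is the main hepatic form of adult mice and is regarded as the counterpart of human CYP3A4, Cyp3a41a is known for its higher expression in female livers, Cyp3a25 is expressed in liver and gut, and Cyp3a13 is known as an intestinal as well as hepatic form. All 4 genes lie on chromosome 5 (GRCm38.p6): Cyp3a41a at chr5:145694049-145720136, Cyp3a11 at chr5:145854607-145879854 and Cyp3a25 at chr5:145977192-146009644 in 1 cluster, and Cyp3a13 apart from it at chr5:137892933-137925610. Sequences of the family are alike, so that cDNA of one member, or of paralogs without a probe such as Cyp3a41b and Cyp3a44, can bind the probe of another, which was not tested; the values below are those of the probes.

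The promoters of the 3 clustered members are shown because both agents act through receptors that bind DNA, and because these members were called under both. Each run is the 250 bases before a RefSeq start of the gene on its minus strand, from the GRCm38.p6 table, read 5′ to 3′, with each match to the half-sites AGGTCA or AGTTCA, on either strand, in capitals.
Cyp3a11 (chr5:145879855-145880104): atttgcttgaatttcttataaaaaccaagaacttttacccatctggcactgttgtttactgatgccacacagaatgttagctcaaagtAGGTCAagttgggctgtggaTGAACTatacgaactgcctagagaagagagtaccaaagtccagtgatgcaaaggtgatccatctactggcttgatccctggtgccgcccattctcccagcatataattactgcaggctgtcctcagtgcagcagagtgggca
Cyp3a41a (chr5:145720137-145720386): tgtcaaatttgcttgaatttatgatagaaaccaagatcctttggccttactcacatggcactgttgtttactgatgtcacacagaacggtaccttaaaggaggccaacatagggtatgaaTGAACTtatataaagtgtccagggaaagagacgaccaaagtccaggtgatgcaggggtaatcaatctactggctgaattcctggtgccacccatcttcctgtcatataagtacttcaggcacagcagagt
Cyp3a25 (chr5:146009619-146009868): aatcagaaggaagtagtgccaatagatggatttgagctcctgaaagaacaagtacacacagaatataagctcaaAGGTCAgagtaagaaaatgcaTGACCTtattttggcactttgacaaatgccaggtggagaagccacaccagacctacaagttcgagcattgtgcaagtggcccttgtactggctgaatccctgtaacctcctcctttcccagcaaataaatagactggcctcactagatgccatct
Positions are counted from -1 at the base before the start. The Cyp3a11 window held AGGTCA from -162 and the reverse complement of AGTTCA from -142, with 14 bases between them. In Cyp3a25 the pair was AGGTCA from -176 and its reverse complement from -155, 15 bases apart, and in Cyp3a41a only the reverse complement of AGTTCA was found, from -130. The Cyp3a25 window starts from a RefSeq start just inside the annotated span of its gene and so overlaps its end, and the Cyp3a13 window, which lies wholly inside its gene, held no match. Of 32851 promoter windows of the same length, 24.2% held at least 1 such half-site and 3.7% held 2 or more. A half-site followed within 20 bases by an inverted one, as in Cyp3a11 and Cyp3a25, was in 0.219% of them. That limit takes in the 14 and 15 bases seen here, so the share is no test of how rare the pair is. Direct repeats spaced by 3 (DR3) or 4 bases (DR4) and everted repeats spaced by 6 (ER6), built from these 2 half-sites, were in none of the 4 windows and in 0.0122%, 0.0244% and 0.00913% of all windows. Over a global alignment, the windows of Cyp3a11 and Cyp3a41a were 72.9% identical, those of Cyp3a25 and Cyp3a11 54.3%, and those of Cyp3a41a and its unmeasured paralog Cyp3a41b 99.6%. These matches are letters in a window and were not set against the expression values.

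Values are log2 ratios of the liver signal (Cy3) to the reference pool (Cy5), so that 0 stands for the level of the pool and a step of 1 for a doubling. Ratios can be compared between groups of 1 pool for the same gene, and not between genes or between pools. A gene was called where the adjusted p from limma (Benjamini-Hochberg over 277 genes) was under 0.05, and an error after ± is an SD over arrays. Of all probes, 62.0% to 79.6% per array were above background with pool 1 and 52.5% to 69.7% with pool 3, and the 4 members were above background on every array. On pool 3, 5 of the 11 arrays (vehicle 2 and 4, PCN 1, 3 and 4) had a dim liver channel, with spike-in log2 ratios of -2.37 to -2.08 against -1.17 to 0.13 on the other arrays. Liver identity was checked on 11 hepatocyte genes: 10 are on the array, and 9 or all 10 of them were above background on every array of each group. Of the 6 adipocyte genes 3 are on the array, with summed signals of 602 to 905 on pool 1 and 311 to 486 on pool 3 and 1 gene above background on no array, and none of the markers listed for macrophages, bile duct, endothelium, stellate cells or blood is, so that shares of those cells were not measured. In whole liver, fewer cells of a type and less RNA per cell cannot be told apart.

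Signals of Cyp3a11 and Cyp3a41a were bright enough to reach the scanner's ceiling. Cyp3a11 was saturated in the liver channel (the median pixel of most of its spots at the ceiling) on 6 of 6 TCPOBOP arrays on standard diet and on 5 of 6 on cholesterol diet, and on no vehicle or PCN array. Cyp3a41a showed the same counts, 6 of 6 and 5 of 6, with none in the vehicle and PCN groups. The reference channel was saturated as well, for Cyp3a11 on 26 of 29 arrays of pool 1 and 8 of 11 of pool 3, and for Cyp3a41a on 22 of 29 and 1 of 11. A liver value at the ceiling is a lower bound of the level, and a reference at the ceiling makes the ratio an upper bound, so the sizes given for these 2 genes are those of clipped signals. Cyp3a25 and Cyp3a13 were saturated on no array in either channel, and the statements on size under TCPOBOP rest on them. Changes of Cyp3a11 and Cyp3a41a under PCN and by diet are given as fitted, with the reference clipped on part or all of the arrays. Liver signals with PCN came near the ceiling as well. PCN mouse 5 on cholesterol diet read 48613 for Cyp3a11 and 53199 for Cyp3a41a, with 1 spot of the latter saturated. Saturated TCPOBOP arrays read as low as 48462 for Cyp3a11 and 52902 for Cyp3a41a. Part of the pixels under PCN can thus be clipped, which was not measured. Raw liver intensities of Cyp3a11 ran from 17893 to 33156 with vehicle on standard diet and from 48462 to 58328 with TCPOBOP, where the mean over the pixels of a spot stayed below the ceiling and their median was at it. For Cyp3a25 they ran from 2222 to 4334 and from 7376 to 14584. In the authors' deposited ratios Cyp3a11 has no value on any of the 30 samples of pool 1 and Cyp3a41a has 4 of 30, while Cyp3a25 and Cyp3a13 have all 30.

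**Figure D1:**
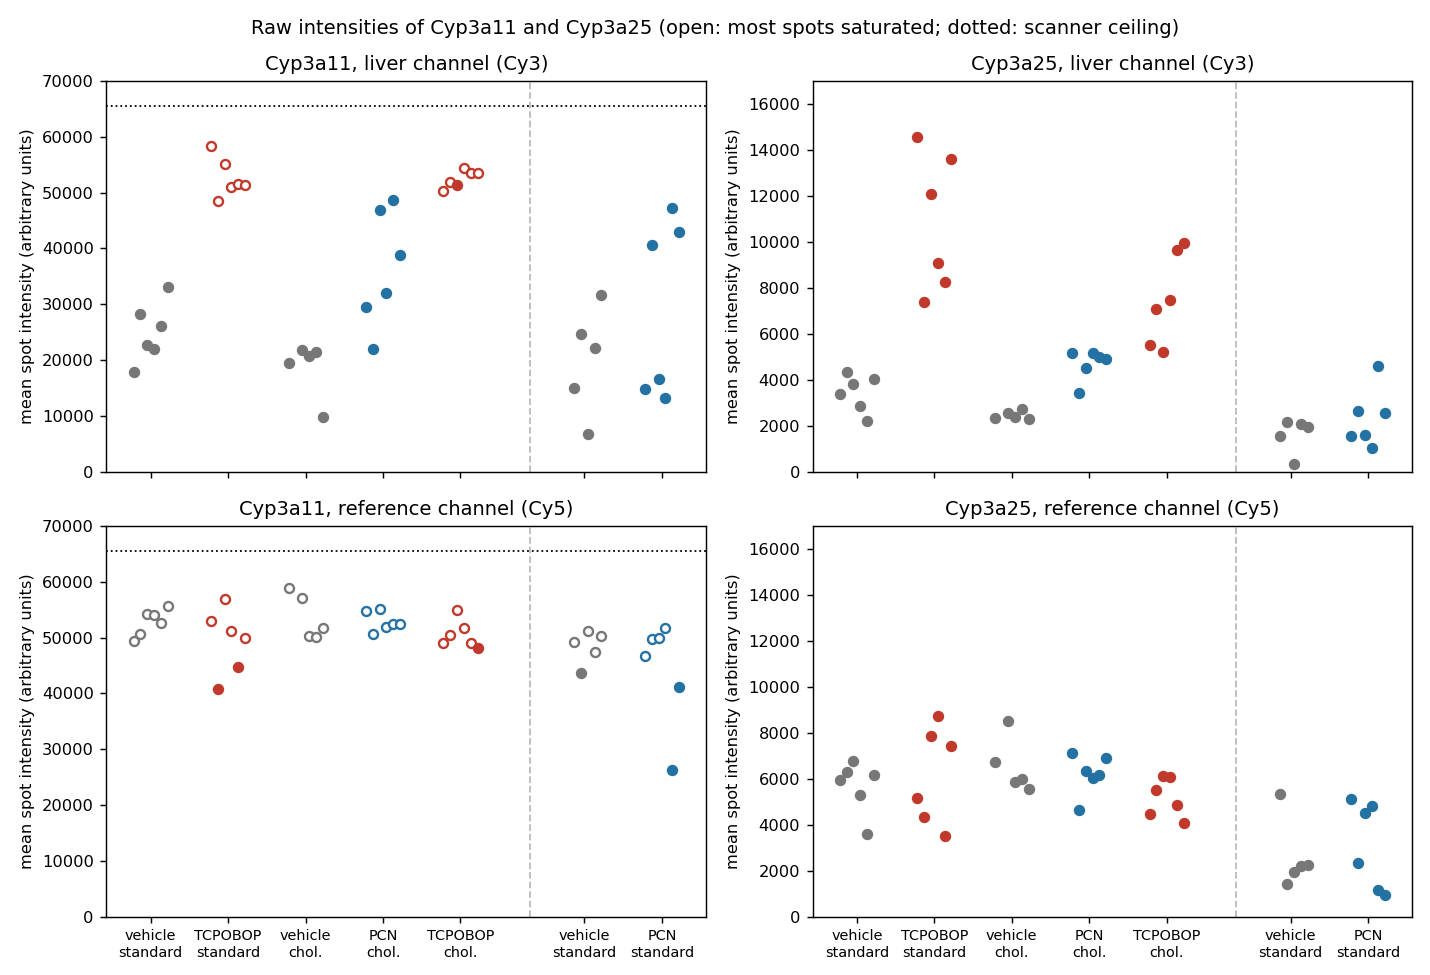
Mean spot intensity (arbitrary units, linear axis) of Cyp3a11 and Cyp3a25 in the liver and reference channel, 1 point per array, by treatment and diet, with pool 1 left and pool 3 right of the dashed line and chol. for the cholesterol diet. Open points are arrays where most spots were saturated: Cyp3a11 is open on 6 of 6 TCPOBOP arrays on standard diet and on 26 of 29 and 8 of 11 reference channels, Cyp3a25 on none.

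On standard diet, all 4 Cyp3a members were higher in every TCPOBOP mouse than in any vehicle mouse. Cyp3a25 lay at -0.61, -0.42 and -0.25 (lowest, median and highest of 6) with vehicle and at 0.90, 0.97 and 1.20 with TCPOBOP. Cyp3a13 lay at -0.32, -0.25 and -0.02 with vehicle and at 0.66, 1.05 and 1.39 with TCPOBOP. For both genes each treated array was above each vehicle array, with a gap wider than the range within either group for Cyp3a25. The log2 fold change was 1.44 for Cyp3a25 (SE 0.10, adjusted p = 1.56e-10 from limma, 2.72-fold) and 1.23 for Cyp3a13 (SE 0.13, adjusted p = 8.83e-08, 2.34-fold). Cyp3a11, the main hepatic form, lay at -1.06, -0.73 and -0.57 with vehicle and at -0.02, 0.28 and 0.51 with TCPOBOP, and Cyp3a41a at -0.80, -0.56 and -0.25 against 0.03, 0.36 and 0.70. The groups did not overlap for these either. Both were saturated on every TCPOBOP array, so their sizes are those of clipped signals. In the liver channel, after within-array loess and quantile normalization of the average intensities between arrays, Cyp3a11 was 1.75-fold and Cyp3a41a 1.62-fold higher. These are no strict lower bounds, since the averages include the clipped reference and are held near fixed values for the brightest probes. They are also open to dye bias, since no dyes were swapped. The lowest log2 fold change over the other ways of processing was 0.79 for Cyp3a11 and 0.66 for Cyp3a41a. The adjusted p of the ratio from limma was 0.000305 for Cyp3a11 and 0.00385 for Cyp3a41a. All 4 members were called higher and none lower, where 43.3% of all genes were called, 22% higher and 21.3% lower; all 4 had groups without overlap, which 25.6% of all genes had. The median log2 fold change was 1.13 over the members, a midpoint that rests in part on the clipped value of Cyp3a11, and -0.01 over all genes. Of 10 hepatocyte genes 5 fell in this comparison (Cyp2e1, Cyp8b1, Fgb, Hc and Pck1) and none rose, the summed liver signal of the list (arbitrary units) being 139000 to 154000 with vehicle and 92100 to 114000 with TCPOBOP. Of the 3 adipocyte genes Adipoq and Slc2a4 fell as well, with summed signals of 682 to 862 and 621 to 813, and the part of either list in the rise of Cyp3a was not tested.

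The same agent on cholesterol diet gave a rise of all 4 members too. Cyp3a25 lay at -1.61, -1.26, -1.12, -1.07 and -1.05 on the 5 vehicle arrays and at 0.28, 0.53 and 0.90 (lowest, median and highest) on the 6 TCPOBOP arrays. Cyp3a13 lay at -1.45, -1.002, -0.98, -0.86 and -0.40 against 0.67, 0.89 and 1.02. Neither overlapped, and the treated arrays of Cyp3a13 lay closer together than the vehicle arrays (SD 0.15 against 0.37). The log2 fold changes were 1.77 for Cyp3a25 (SE 0.11, adjusted p = 2.49e-11, 3.42-fold) and 1.80 for Cyp3a13 (SE 0.14, adjusted p = 5.15e-10, 3.47-fold). Cyp3a11 stood at -2.15, -1.62, -0.95, -0.62 and -0.45 with vehicle and ran from 0.02 over a median of 0.15 to 0.54 with TCPOBOP, where the ceiling limits the spread. Cyp3a41a stood at -2.05, -1.66, -0.79, -0.56 and -0.23 with vehicle and ran from 0.13 over 0.32 to 0.98 with TCPOBOP. Vehicle mice 1 and 6 were the 2 lowest for both genes. Both were called higher (adjusted p = 2.05e-05 for Cyp3a11 and 6.26e-05 for Cyp3a41a), and their fitted log2 differences of 1.39 and 1.48 are those of clipped signals and no measure of size, with 5 of 6 treated arrays at the liver ceiling and 5 of 5 vehicle arrays at the reference ceiling. Again 4 of 4 members were called higher, where 37.5% of all genes were called and 23.1% called higher, and 4 of 4 had groups without overlap, against 14.4%. The scanner files give spot positions in micrometres for replicates 1 and 2 and in millimetres for replicates 3 to 6 of pool 1, and the arrays were split by this unit as a batch; all arrays of pool 3 use micrometres. Within the millimetre arrays (4 against 4) the log2 fold change was 1.68 for Cyp3a25 and 1.62 for Cyp3a13, and within the micrometre arrays (2 against 1, the lone vehicle array taken to vary like the other groups) it was 2.14 and 2.41, with Cyp3a41a at 1.18 and 2.39. On standard diet those pairs of values were 1.39 and 1.54 for Cyp3a25, 1.17 and 1.35 for Cyp3a13, 1.03 and 1.07 for Cyp3a11, and 0.94 and 0.86 for Cyp3a41a. Of the hepatocyte genes 2 fell here (Alb and G6pc), with summed signals of 121000 to 156000 with vehicle and 105000 to 115000 with TCPOBOP, and their part was not tested.

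**Figure D2:**
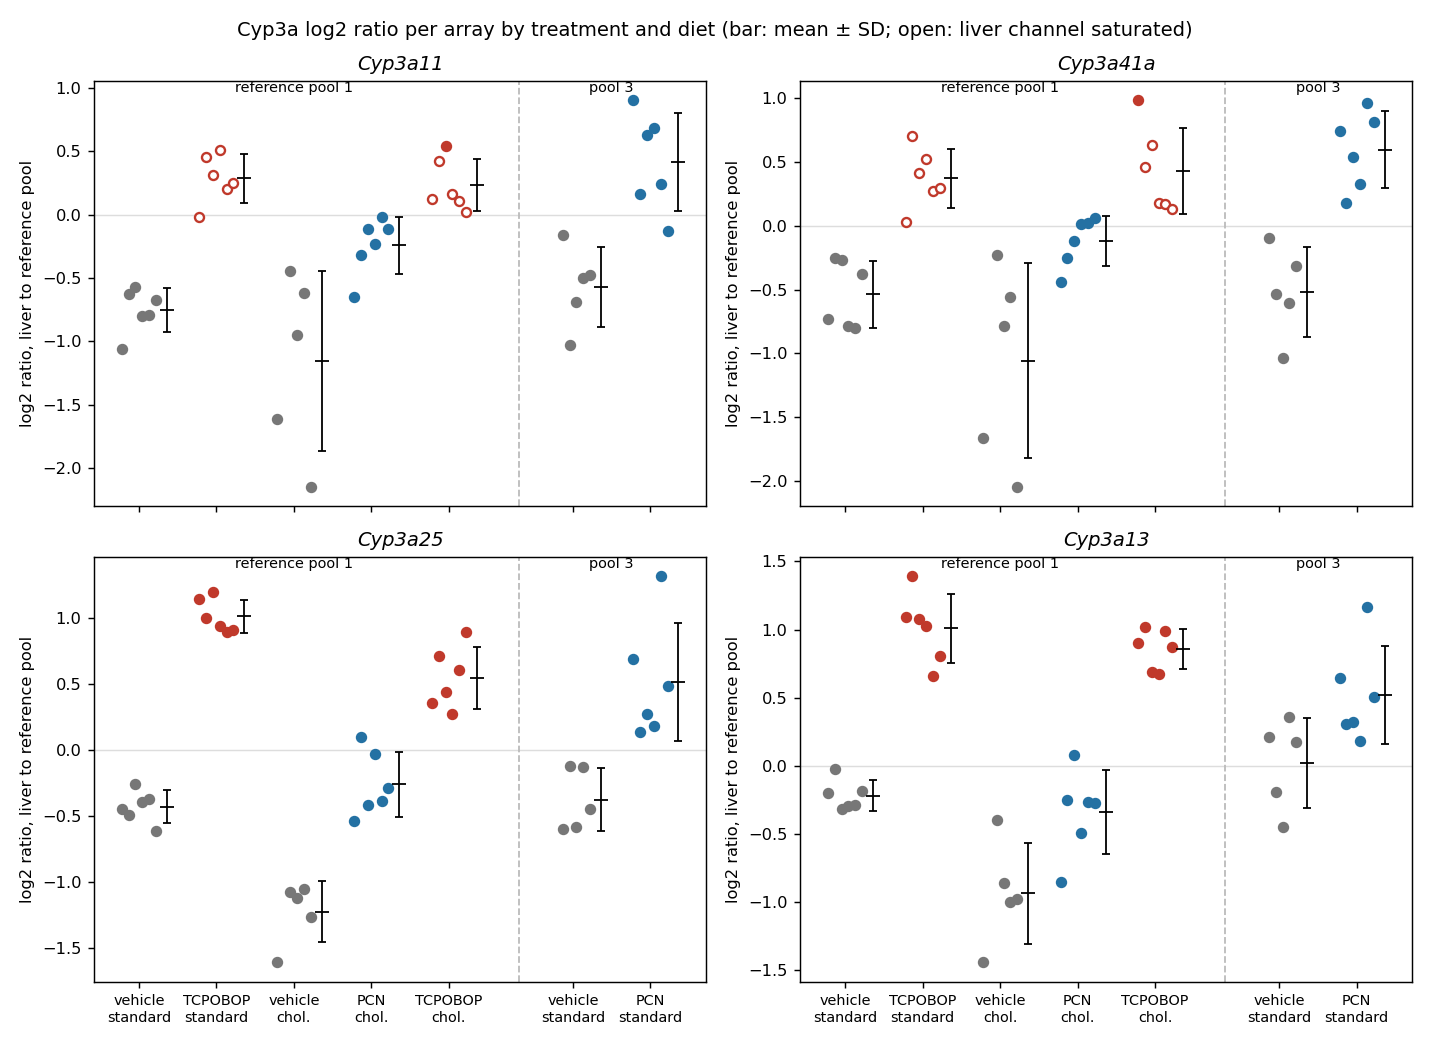
Log2 ratio of liver to reference pool for each member, 1 point per array, with mean ± SD beside each group; pool 1 is left and pool 3 right of the dashed line, and open points are arrays saturated in the liver channel. TCPOBOP arrays (red) lie above vehicle arrays (grey) of the same diet for all 4 genes, the PCN means (blue) lie between those of vehicle and TCPOBOP on cholesterol diet, and the vehicle mice on cholesterol diet reach down to -2.15 for Cyp3a11.

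Whether diet alone moved the family was read from the vehicle mice. Cyp3a25 and Cyp3a13 fell on cholesterol diet, by 0.80 (SE 0.11, adjusted p = 2.11e-05) and by 0.72 on the log2 scale (SE 0.14, adjusted p = 0.00058), and for both each of the 5 arrays on cholesterol diet lay below each of the 6 on standard diet. Cyp3a11 and Cyp3a41a did not pass the test, with log2 fold changes of -0.40 (95% interval -0.85 to 0.04, adjusted p = 0.212) and -0.52 (-1.04 to -0.0032, adjusted p = 0.165). Their cholesterol groups overlapped the standard groups, and the SD on cholesterol diet was 0.71 for Cyp3a11 and 0.77 for Cyp3a41a against 0.18 and 0.26 on standard diet. In this comparison 2 of 4 members were called lower and none higher, where 14.4% of all genes were called, 4.69% higher and 9.75% lower, and 10.8% of all genes had groups without overlap. Leaving out vehicle mouse 3 on cholesterol diet, the highest of its group for Cyp3a11, Cyp3a41a and Cyp3a13, brought Cyp3a41a past the threshold (-0.73, adjusted p = 0.0399). Within the millimetre arrays the changes were -0.72 for Cyp3a25 (adjusted p = 0.000766) and -0.54 for Cyp3a13 (adjusted p = 0.011), and within the micrometre arrays, where cholesterol diet has 1 array, -1.14 and -1.33. From the liver channel alone, scaled to its 75th percentile, they were -0.41 for Cyp3a25 (adjusted p = 0.0641) and -0.42 for Cyp3a13 (adjusted p = 0.119), which ends both calls. Of the hepatocyte genes Cyp2e1 and Fgb fell and none rose, and their part was not tested.

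Among TCPOBOP mice, Cyp3a25 was lower on cholesterol than on standard diet, by 0.47 on the log2 scale (SE 0.10, adjusted p = 0.0135), and these groups did not overlap. The mice were 18 weeks old on cholesterol and 19 on standard diet, so diet and age cannot be told apart here. Cyp3a25 was 1 of 12 genes called, the called genes being 4.33% of all, with 0.722% called higher and 3.61% lower, and 2.89% of all genes had groups without overlap. Cyp3a13 changed by -0.15 (95% interval -0.42 to 0.12, adjusted p = 0.62), with overlapping groups. For Cyp3a11 and Cyp3a41a 11 of 12 arrays were at the ceiling, and nothing is read from their fitted values of -0.05 and 0.05. The Cyp3a25 call was lost under 7 of the other ways of processing, among them both batches taken alone (-0.43 and -0.54, adjusted p = 0.0715 and 0.314) and the authors' deposited ratios (-0.37, adjusted p = 0.0971).

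The dependence of the TCPOBOP response on diet was tested as the interaction of both, that is the log2 fold change on cholesterol diet minus that on standard diet. Age differed by diet among the TCPOBOP mice, so age and diet cannot be told apart in this difference. The interaction was called for no member, with 0.57 for Cyp3a13 (95% interval 0.17 to 0.96, adjusted p = 0.119) and 0.33 for Cyp3a25 (0.02 to 0.64, adjusted p = 0.323). The estimates of Cyp3a11 (0.35, adjusted p = 0.682) and Cyp3a41a (0.57, adjusted p = 0.563) are differences of clipped signals, at the ceiling on 6 of 6 and 5 of 6 TCPOBOP arrays, from which neither size nor direction is read. Over all 277 genes limma called 0 interactions, with 35 at an unadjusted p under 0.05, and other ways of processing called up to 6. Without vehicle mouse 3 on cholesterol diet the interaction of Cyp3a13 was 0.70 (adjusted p = 0.0341). The TCPOBOP means of Cyp3a13 were 1.01 ± 0.26 on standard and 0.86 ± 0.15 on cholesterol diet (n = 6 each), and the vehicle means -0.22 ± 0.11 (n = 6) and -0.94 ± 0.37 (n = 5). The treated means of this gene lay closer together than the vehicle means.

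PCN on standard diet, measured against pool 3, raised 3 of the 4 members. Cyp3a41a lay at -1.04, -0.60, -0.53, -0.32 and -0.09 on the 5 vehicle arrays and at 0.18, 0.64 and 0.96 (lowest, median and highest) on the 6 PCN arrays. Cyp3a11 lay at -1.03, -0.69, -0.50, -0.47 and -0.16 against -0.13, 0.44 and 0.90. Cyp3a25 lay at -0.59, -0.58, -0.44, -0.12 and -0.12 against 0.14, 0.38 and 1.32. These groups did not overlap for any of the 3, although the lowest PCN array and the highest vehicle array of Cyp3a11 lay side by side. The log2 fold changes were 1.11 for Cyp3a41a (SE 0.18, adjusted p = 0.00705, 2.16-fold), 0.99 for Cyp3a11 (SE 0.19, adjusted p = 0.0283, 1.98-fold, the reference at the ceiling on 8 of 11 arrays) and 0.89 for Cyp3a25 (SE 0.20, adjusted p = 0.0401, 1.85-fold). Cyp3a13 overlapped, at -0.45, -0.19, 0.18, 0.21 and 0.36 with vehicle and from 0.18 over 0.41 to 1.17 with PCN, and its change of 0.50 (95% interval 0.09 to 0.91, adjusted p = 0.267) was not called. In this comparison 2.53% of all genes were called and 1.44%, 4 of 277, were called higher, and 3 of those 4 were Cyp3a members; 3.61% of all genes had groups without overlap. The other one was Slco1a4, a hepatic uptake transporter of organic anions known as a PXR target. Cyp3a41a was called without each array in turn (0.98 to 1.22), Cyp3a11 lost its call without vehicle 3, 4, 5 or 6 or PCN 3 (0.87 to 1.10 over all 11 omissions, adjusted p up to 0.0755), and Cyp3a25 lost it in 8 of 11 omissions, all but those of PCN 2, 4 and 5 (0.73 to 0.96, adjusted p up to 0.129). With the spike-in balance of the channels as a block, chosen after seeing the data, the values were 0.94 for Cyp3a11 (adjusted p = 0.0077), 1.12 for Cyp3a41a (0.00862) and 0.92 for Cyp3a25 (0.033); within the 5 dimmer arrays they were 1.17, 1.10 and 0.97, and within the other 6 they were 0.76, 1.14 and 0.88, none past the threshold. From the liver channel alone with quantile normalization, in which the brightest probes of every array receive nearly the same values, the changes shrank to 0.28 for Cyp3a11 and 0.64 for Cyp3a41a, while scaling to the 75th percentile gave 0.77, 0.90 and, for Cyp3a25, 0.86 (adjusted p = 0.0596 for each). Median centring (adjusted p = 0.325 for Cyp3a11, 0.766 for Cyp3a41a and 0.996 for Cyp3a25) and loess on the spike-in spots (0.143, 0.143 and 0.817) also ended all 3 calls. Among hepatocyte genes G6pc fell, and the summed signal of the list was 62800 to 66500 with vehicle and 50000 to 63300 with PCN; its part was not tested.

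**Figure D3:**
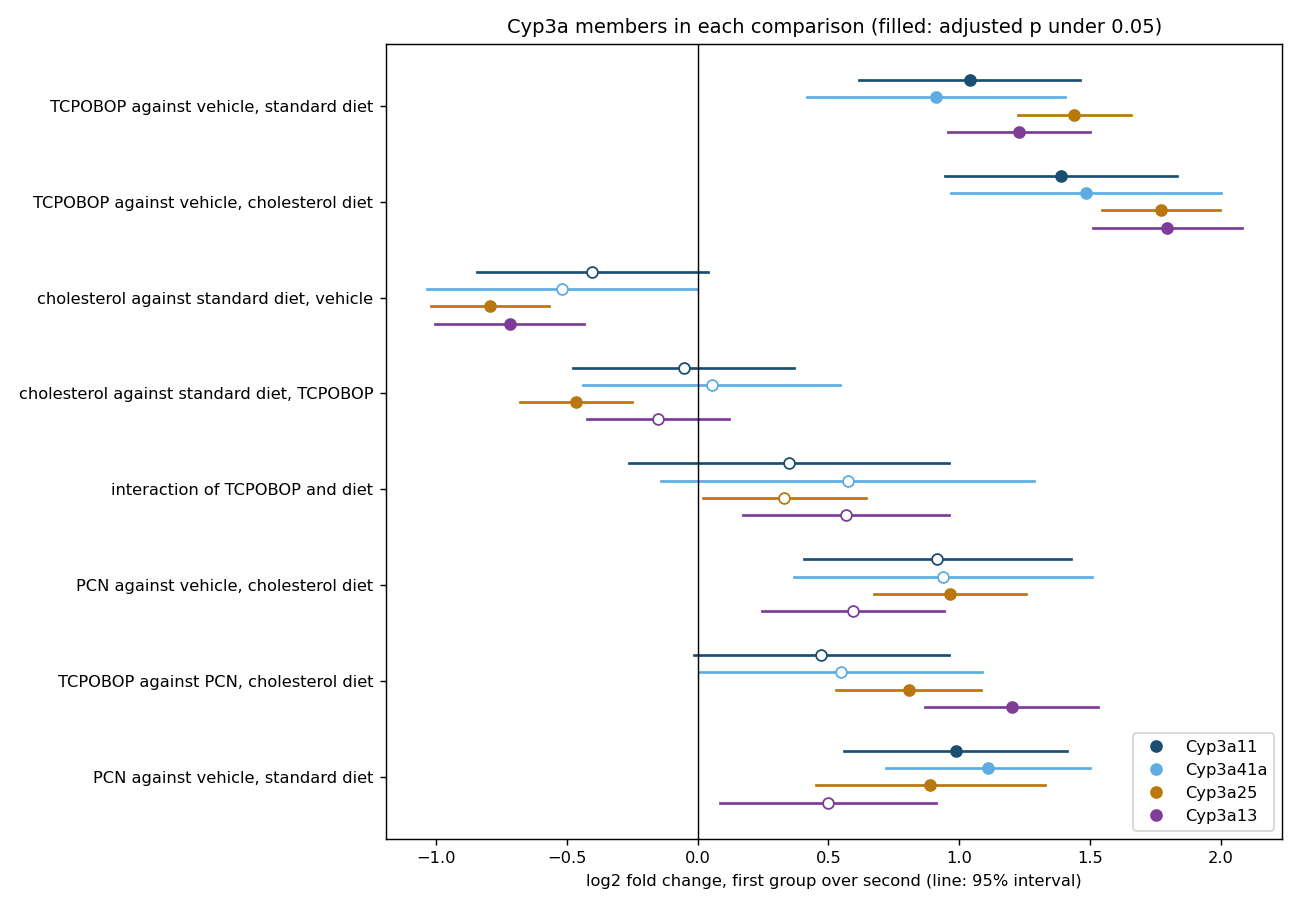
Log2 fold change (first group over second) of each member in the 8 comparisons, with lines for the 95% interval from limma and filled points where the adjusted p is under 0.05. All 4 members are filled and above 0 under TCPOBOP on both diets, Cyp3a25 is filled in 7 of the 8 comparisons, and the 4 interaction estimates are open.

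On cholesterol diet, 1 of the 4 members, Cyp3a25, was called higher with PCN. Cyp3a25 rose by 0.96 on the log2 scale (SE 0.14, adjusted p = 0.00081, 1.95-fold), from the vehicle values above to -0.54, -0.33 and 0.10 (lowest, median and highest) with PCN, without overlap. It had the smallest p of all 277 genes in this comparison, in which 1.08% of genes were called and 0.722% called higher, and 1.44% of genes had groups without overlap. Cyp3a11 changed by 0.92 (95% interval 0.40 to 1.43, adjusted p = 0.104), Cyp3a41a by 0.94 (0.37 to 1.51, adjusted p = 0.119) and Cyp3a13 by 0.59 (0.25 to 0.94, adjusted p = 0.104). All 6 PCN arrays lay above the vehicle mean for each of these 3 genes, but the groups overlapped. For Cyp3a11 and Cyp3a41a the reference was at the ceiling on 5 of 5 vehicle and 6 of 6 PCN arrays. With PCN, Cyp3a11 ran from -0.65 over -0.17 to -0.02, Cyp3a41a from -0.44 over -0.05 to 0.06, and Cyp3a13 from -0.85 over -0.27 to 0.08. A fit with all 5 groups of pool 1 called all 3 (adjusted p = 0.00733 for Cyp3a11, 0.0171 for Cyp3a41a and 0.0174 for Cyp3a13), and so did the fit without vehicle mouse 3 (1.09, 1.14 and 0.73, with adjusted p = 0.018, 0.0218 and 0.018). Leaving out vehicle mouse 5 brought Cyp3a11 past the threshold (1.05, adjusted p = 0.046), and leaving out PCN mouse 1 brought Cyp3a13 past it (0.70, adjusted p = 0.0307). Within the millimetre arrays Cyp3a25 changed by 0.85 (adjusted p = 0.00554), Cyp3a11 by 0.92, Cyp3a41a by 0.90 and Cyp3a13 by 0.57, and within the micrometre arrays, with 1 vehicle array, by 1.39, 1.13, 1.31 and 0.89. No hepatocyte gene was called in this comparison.

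TCPOBOP and PCN could be compared directly on cholesterol diet, where both were hybridized against pool 1, at doses that differ (3 and 40 mg/kg) and in mice of 18 and 16 weeks. Cyp3a13 was 1.20 higher on the log2 scale with TCPOBOP (SE 0.16, adjusted p = 2.36e-05) and Cyp3a25 0.81 higher (SE 0.13, adjusted p = 0.000202). For Cyp3a11 the difference was 0.47 (95% interval -0.01 to 0.96, adjusted p = 0.14) and for Cyp3a41a 0.55 (0.0041 to 1.09, adjusted p = 0.128), with TCPOBOP at the ceiling on 5 of 6 arrays for each. All 4 members had groups without overlap, against 13.7% of all genes, and 2 of 4 were called higher, where 27.4% of all genes were called and 15.5% called higher. A fit of only these groups called the other pair as well (adjusted p = 0.00921 for Cyp3a11 and 0.0152 for Cyp3a41a), as did the methods' t-test with its thresholds; by the liver channel scaled to the 75th percentile the differences were 0.74 and 0.71 (adjusted p = 0.0114 and 0.0151). Within the millimetre and the micrometre arrays the difference was 1.05 and 1.51 for Cyp3a13, 0.83 and 0.76 for Cyp3a25, 0.33 and 0.76 for Cyp3a11, and 0.28 and 1.07 for Cyp3a41a. Of the hepatocyte genes Cyp2e1 and G6pc, and of the adipocyte genes Slc2a4, were lower with TCPOBOP and none higher, and their part was not tested. By mean log2 ratio of Cyp3a25 the pool 1 groups ran from vehicle on cholesterol diet (-1.22) over vehicle on standard diet (-0.42), PCN on cholesterol diet (-0.26) and TCPOBOP on cholesterol diet (0.55) to TCPOBOP on standard diet (1.02). Of these neighbours, vehicle on standard diet and PCN on cholesterol diet overlapped, and they differ in both diet and treatment and were not tested against each other. In Cyp3a13 this order differed by those middle groups, at -0.22 for vehicle on standard diet and -0.34 for PCN on cholesterol diet, while in Cyp3a11 they stood at -0.75 and -0.24 and in Cyp3a41a at -0.54 and -0.12. The ranges of these middle groups overlapped for all 4 genes. The means of the TCPOBOP groups, on cholesterol and standard diet, were 0.23 and 0.29 for Cyp3a11 and 0.43 and 0.37 for Cyp3a41a, with overlapping ranges at the ceiling.

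Likeness of the members across arrays differed between the pools. Over the 29 arrays of pool 1, Pearson's r of the log2 ratios was 0.96 for Cyp3a11 with Cyp3a41a and 0.94 for Cyp3a25 with Cyp3a13, and 0.80 to 0.84 for the other pairs; the points share the group differences, the reference and the array. After the group means were subtracted, r was 0.89 for Cyp3a11 with Cyp3a41a and 0.18 to 0.49 for the remaining pairs, 0.39 for Cyp3a25 with Cyp3a13. Both genes of the first pair have a clipped reference on most of these arrays. In the liver channel alone, itself clipped under TCPOBOP, r of their deviations was 0.74. Over the 17 vehicle and PCN arrays, none saturated in the liver channel, r of the deviations was 0.96 for the ratios and 0.79 for the liver channel. These arrays include vehicle mice 1 and 6 on cholesterol diet, far below the rest at -1.62 and -2.15 for Cyp3a11 and -1.66 and -2.05 for Cyp3a41a. Their weight in r was not tested. On the 11 arrays of pool 3 r of the log2 ratios was 0.78 for that pair and 0.83 to 0.85 for the pairs among Cyp3a41a, Cyp3a25 and Cyp3a13. After the group means were taken off, r there was 0.16 for Cyp3a11 with Cyp3a41a, 0.76 for Cyp3a13 with Cyp3a41a and 0.75 for Cyp3a13 with Cyp3a25. From the liver channel alone r of the deviations of these pairs was -0.17, 0.45 and 0.67. The 3 spots of a probe on 1 array differed little, with a median SD of 0.03 to 0.05 on pool 1 and of 0.04 to 0.14 on pool 3. The genes most like a member, by r over the 29 arrays, were the other members for Cyp3a11 and Cyp3a41a. For Cyp3a25 they were Cyp3a13 (0.94), Cyp2a4 (0.91), a steroid hydroxylase, and Abcc3 (0.90), an efflux pump of the basolateral membrane, and for Cyp3a13 they were Abcc3 (0.94), Cyp3a25 (0.94) and Rarb (0.91), a retinoic acid receptor.

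**Figure D4:**
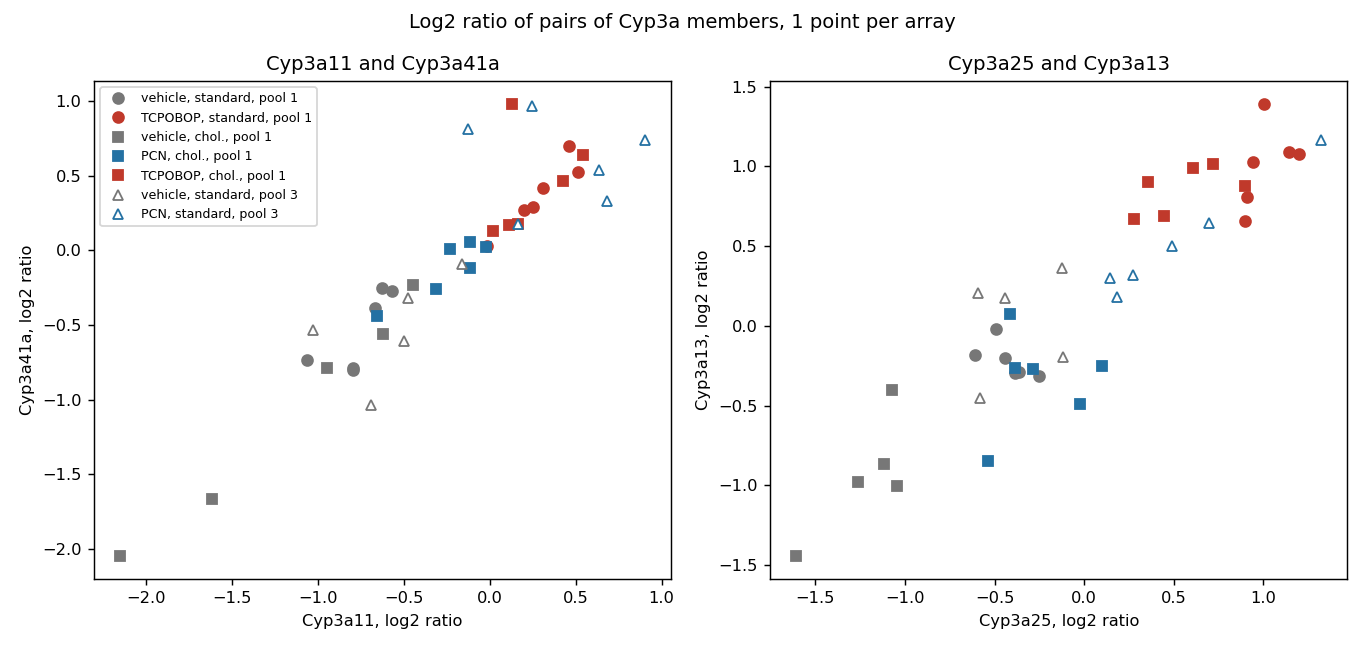
Log2 ratio of Cyp3a41a against Cyp3a11 and of Cyp3a13 against Cyp3a25, 1 point per array, coloured by treatment, with open triangles for pool 3. Pool 1 arrays follow a line in both panels (r of 0.96 and 0.94 over 29 arrays), with vehicle mice 1 and 6 on cholesterol diet lowest in the first.

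The rest of the CAR and PXR pathway was described from a list of 48 genes, of which 21 are on the array, none of them a member. TCPOBOP on standard diet raised 13 of these 21 and lowered 2, and on cholesterol diet raised 12 and lowered 2, while PCN raised 1 on either diet and lowered none. Over all genes the shares called higher and lower were 22% and 21.3%, and 23.1% and 14.4%, for TCPOBOP, and 1.44% and 1.08%, and 0.722% and 0.361%, for PCN, so that 1 of 21 under PCN is a count near that background. The median log2 fold change of the 21 genes was 0.32 and 0.29 for TCPOBOP and 0.01 and 0.18 for PCN (standard and cholesterol diet). Over all genes these medians lay between -0.02 and 0.00. Cyp2b10, the P450 used as a marker of CAR, rose by 2.98 on standard and 3.15 on cholesterol diet with TCPOBOP (SE 0.15 and 0.16, adjusted p = 1.1e-12 and 9.25e-13) and had values of -0.03 (95% interval -0.35 to 0.29, adjusted p = 0.986) and 0.27 (-0.10 to 0.63, adjusted p = 0.512) with PCN. It lay between -0.28 and 0.21 on the vehicle arrays of pool 3 and between -0.27 and 0.56 on the PCN arrays, the same mice in which 3 Cyp3a members were called. Slco1a4 rose under both agents, by 0.94 and 1.54 with TCPOBOP (adjusted p = 9.83e-06 and 1.81e-08) and by 0.62 and 0.95 with PCN (adjusted p = 0.0412 and 0.00843). Abcc3 rose by 1.26 and 2.02 with TCPOBOP, with values of 0.33 and 0.43 under PCN that were not called (adjusted p = 0.0803 and 0.25). Of the receptors, PXR itself (Nr1i2) rose with TCPOBOP by 0.32 and 0.33 (adjusted p = 0.00049 and 0.000774) and had values of -0.07 and -0.11 with PCN (adjusted p = 0.733 and 0.483). CAR (Nr1i3) fell by 0.71 with TCPOBOP on standard diet (adjusted p = 0.000462) and was not called with it on cholesterol diet (-0.26, adjusted p = 0.185), the difference between these not being called either (0.45, adjusted p = 0.351). It fell by 0.60 with cholesterol diet in vehicle mice (adjusted p = 0.0082), and its shared partner Rxra was called in none of the 8 comparisons. In vehicle mice on cholesterol diet Abcc3 fell by 0.89 (adjusted p = 9.28e-05), where Cyp3a25 changed by -0.80 and Cyp3a13 by -0.72, and Slco1a4 was lower (adjusted p = 4.02e-05). On cholesterol diet both agents were set against the same vehicle mice, so that likeness between them there is not independent, while on standard diet each agent had vehicle mice of its own.

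**Figure D5:**
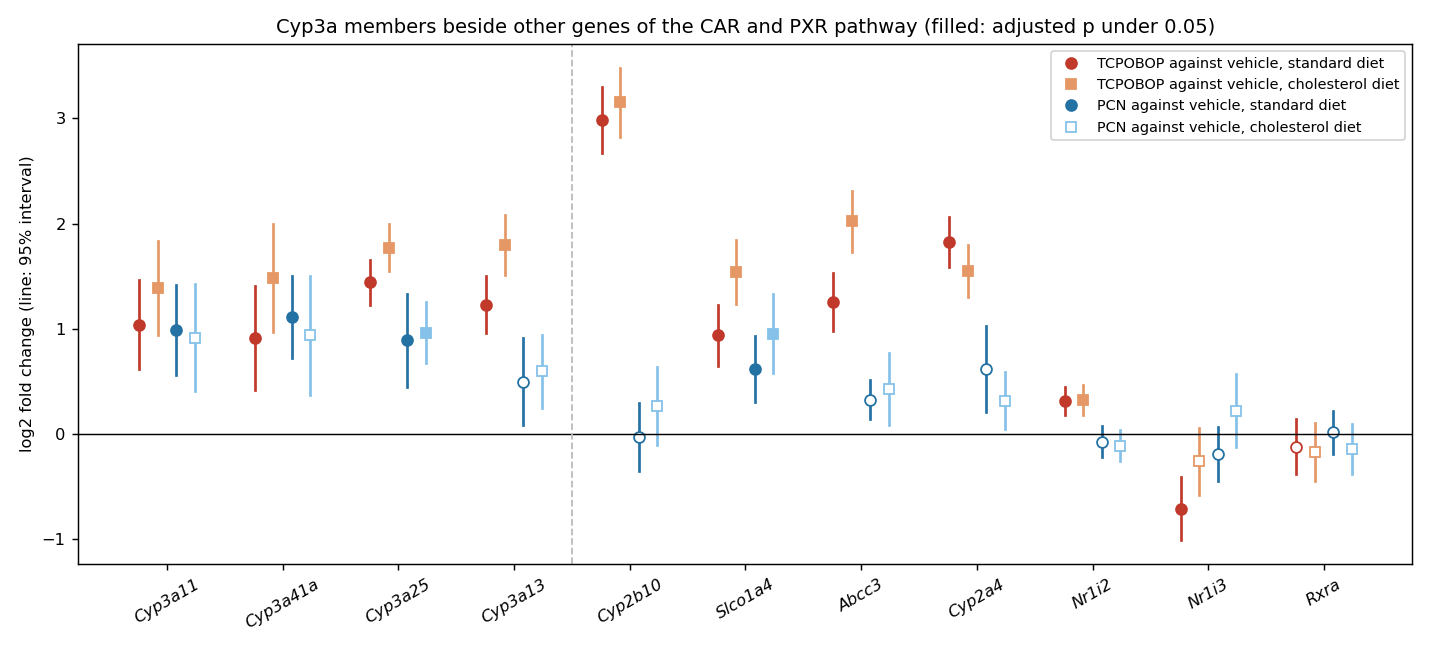
Log2 fold change against vehicle of the 4 Cyp3a members (left of the dashed line) and of other genes of the CAR and PXR pathway, for TCPOBOP (red and orange) and PCN (dark and light blue) on standard and cholesterol diet, with 95% intervals and filled points where the adjusted p is under 0.05. Cyp2b10 is near 3 under TCPOBOP and near 0 under PCN, while the Cyp3a members lie above 0 under both.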

How the data were processed

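On each array liver RNA carried Cy3 and the pooled reference RNA Cy5. Deposited by the authors were the scanner's spot intensity for either channel and its local background, before normalization, and log2 ratios per probe, whose normalization is not given in the sources used here. The intensities were used, with the deposited log2 ratios as an alternative (r of 0.917 to 0.996 with the ratios computed here on arrays of pool 1, and of 0.69 to 0.979 on pool 3). Background was corrected by normexp (offset 50), arrays were normalized by loess over mouse spots, and spots of a probe were averaged; of several probes the brightest stood for its gene, and no probe was filtered out. Linear models in limma 3.58.1 (R 4.3.3) gave the comparisons: 4 groups for TCPOBOP and diet, the 3 groups on cholesterol diet, and the 2 groups of pool 3. The steps were tested on simulated data. A single scanner file stood for vehicle replicates 1 and 3 of pool 3 and was counted once, as replicate 3; that of vehicle replicate 2 on cholesterol diet was not used here. Of 406 pairs of pool 1 arrays, 140 had an r under -0.3, the lowest -0.67, and each paired a TCPOBOP with another array; the methods name the dyes, so the direction was kept. Probes were named by symbol (220), synonym (50) or file name (14). Named beside the members are the 3 genes most like each, Nr1i2, Nr1i3, Rxra, Cyp2b10 and Slco1a4, and markers called. The members and lists were chosen with earlier results of these data known. The number of arrays limits the precision.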

Additional observations from a re-analysis of the deposited data

How the results depend on the processing

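For the 4 members in 8 comparisons (32 results, 17 of them called), 1014 values were computed under other ways of processing, and 934 kept their direction and their side of the threshold. Another 53 lost the call, 19 gained one, and 8 changed sign, none of the last in a called result. Adjusted p-values stand in parentheses, and the cause of a change was not tested unless the setting itself holds fewer arrays. The liver channel alone and the channel balance were chosen as alternatives after seeing the data. The precision is limited by 5 or 6 arrays a group and, for Cyp3a11 and Cyp3a41a, by signals at the ceiling: with saturated spots left out, most comparisons of these genes on pool 1 gave no value.

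PCN on standard diet changed most. For Cyp3a11, Cyp3a41a and Cyp3a25 it was 0.99, 1.11 and 0.82 with median centring (0.325, 0.766 and 0.996), 0.93, 1.04 and 0.73 with loess on the spike-in spots (0.143, 0.143 and 0.817), and 0.77, 0.90 and 0.86 from the liver channel at its 75th percentile (0.0596 each). Within the dimmer arrays it was 1.17, 1.10 and 0.97 (0.121, 0.344 and 0.121), and within the less dim ones 0.76, 1.14 and 0.88 (0.134, 0.13 and 0.242). Quantile normalization of the liver channel gave 0.28 for Cyp3a11 and 0.64 for Cyp3a41a (0.14 and 0.118), and the deposited ratios 0.95 for Cyp3a25 (0.182). Cyp3a11 was 1.29 with the deposited ratios, which hold only 1 vehicle and 2 PCN arrays for it. Without saturated spots it was 1.08, since the reference was saturated on 4 of 5 vehicle and 4 of 6 PCN arrays. That leaves the same 1 vehicle array, so no p is given for either value. Cyp3a25 was 0.91 (0.0521) with plain subtraction and 0.93 (0.052) with median spot intensities. The range without each array in turn was 0.87 to 1.10 for Cyp3a11 and 0.73 to 0.96 for Cyp3a25.

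PCN on cholesterol diet was called in a fit of all 5 groups at 0.92 for Cyp3a11, 0.94 for Cyp3a41a and 0.59 for Cyp3a13 (0.00733, 0.0171 and 0.0174), and from the quantile-normalized liver channel at 0.93 and 0.92 for the first pair (0.00579 and 0.0099). Without each array in turn these genes ranged from 0.67 to 1.09, from 0.69 to 1.14 and from 0.47 to 0.73. TCPOBOP against PCN was called for Cyp3a11 and Cyp3a41a with only these groups in the fit at 0.47 and 0.55 (0.00921 and 0.0152), by the methods' t-test at the same values (0.0179 and 0.0288), and at the 75th percentile of the liver channel at 0.74 and 0.71 (0.0114 and 0.0151).

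For diet among TCPOBOP mice, Cyp3a25 lost its call with median centring at -0.39 (0.084), loess on spike-in spots at -0.32 (0.163), the deposited ratios at -0.37 (0.0971), the liver channel at -0.34 by quantiles (0.0709) and -0.39 at the 75th percentile (0.125), and within the micrometre and millimetre arrays at -0.54 and -0.43 (0.314 and 0.0715). The uncalled values of Cyp3a11 and Cyp3a41a, -0.05 and 0.05, come from arrays at the ceiling, and nothing is read from their sign. That of Cyp3a11 was 0.056 within the micrometre arrays, 0.062 by quantiles of the liver channel and 0.15 at its 75th percentile. That of Cyp3a41a was -0.10 within the millimetre arrays, -0.01 (-0.00582 unrounded) with array weights and -0.062 by quantiles of the liver channel, and ranged from -0.058 to 0.12 without each array in turn. For diet among vehicle mice, the 75th percentile of the liver channel gave -0.41 for Cyp3a25 and -0.42 for Cyp3a13 (0.0641 and 0.119), the micrometre arrays -1.14 and -1.33 (0.119 each), and quantiles of the liver channel a call of Cyp3a41a at -0.56 (0.0365), whose range without each array was -0.73 to -0.27. The interaction of Cyp3a13 ranged from 0.44 to 0.70 without each array. The micrometre arrays, 1 or 2 a group, also lost TCPOBOP on standard diet for Cyp3a11 at 1.07 (0.0519) and Cyp3a41a at 0.86 (0.167), PCN on cholesterol diet for Cyp3a25 at 1.39 (0.687) and TCPOBOP against PCN for Cyp3a25 at 0.76 (0.213).

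Same-numbered replicates correlated from -0.56 to 0.67 over the 3 fits. These values do not settle whether the numbers pair the mice, and in pool 1 the number also fixes the batch. The main fits took no pairing. With the replicate number as a block, PCN on standard diet was 0.89 for Cyp3a11 (0.131), 1.08 for Cyp3a41a (0.0624) and 0.85 for Cyp3a25 (0.0624), with 1 gene called in place of 7, and the block changed no other call of a member.

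Counts of all genes called moved by over 1.5 times as follows. The 120 and 104 genes under TCPOBOP (standard and cholesterol diet) became 33 and 25 within the micrometre arrays, 74 and 68 with the deposited ratios, which hold fewer genes, and 63 and 59 at the 75th percentile of the liver channel. The 76 of TCPOBOP against PCN became 22, 49 and 47 there. The 40 of diet with vehicle became 79 by the methods' t-test at its own looser thresholds, p under 0.05 and adjusted p under 0.16. At an adjusted p under 0.05 that t-test called 42. The 12 of diet with TCPOBOP became 3 with median centring, 5 with only those groups fitted, 0 and 3 within the micrometre and millimetre arrays (32 and 51 at an unadjusted p under 0.05 from limma), and 7 to 23 without each array. The 3 of PCN on cholesterol diet became 5 with only those groups fitted, 8 with 5 groups, 13 within the millimetre arrays (53 unadjusted), 7 by quantiles of the liver channel and 2 to 6 without each array. By the methods' t-test they became 6 at its looser thresholds and 1 at an adjusted p under 0.05. The 7 of PCN on standard diet became 3 with plain subtraction, 0 with median centring (12 unadjusted), 1 with spike-in loess, 2 with the deposited ratios, 3 and 1 from the liver channel, 0 and 1 within the less dim and dimmer arrays (40 and 21 unadjusted), and 2 to 7 without each array. Interactions rose from 0 (35 unadjusted) to 6 without dim genes, 1 within the millimetre arrays, 5 and 1 from the liver channel, and 0 to 6 without each array.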

Other observations

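Both samples without scanner values of their own have deposited log2 ratios, made by the authors. Replicate 2 of vehicle on cholesterol diet stood at -1.11 for Cyp3a25 and -0.79 for Cyp3a13, inside the deposited range of the other 5 mice of its group, which was -1.64 to -0.97 and -1.38 to -0.41. Replicate 1 of the vehicle group of pool 3 stood at -0.74 for Cyp3a41a, -0.69 for Cyp3a25 and -0.33 for Cyp3a13. The Cyp3a41a value lay inside the range of the 4 other mice with a value (-0.93 to 0.16), and the values of Cyp3a25 and Cyp3a13 lay below those of the other 5 mice, which were -0.37 to 0.82 and -0.23 to 1.28. On pool 3 the deposited ratios differed from those computed here by amounts that varied between arrays. For Cyp3a25, vehicle 2 stood at 0.51 deposited and -0.59 computed, and vehicle 4 at -0.37 and -0.58. The place of replicate 1 among these mice can therefore come from the scaling of arrays, and nothing is read from it. Cyp3a11 has no deposited value in either sample.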
